A study of Rattus norvegicus with 10 samples.

Results

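Immediate-early activity genes are described here through 10 members, *Fos*, *Fosb*, *Fosl2*, *Junb*, *Egr1*, *Egr3*, *Npas4*, *Nr4a1*, *Arc* and *Homer1*, which were listed by name and not chosen by a measured value. All 10 were among the 14166 genes of the bulk RNA-seq table and among the 25399 features of each snRNA-seq matrix. The tissue was the dentate gyrus of male Sprague Dawley rats on the injured side, taken 3 weeks after a lateral fluid percussion injury (LFPI), in which a fluid pulse on the intact dura produces a traumatic brain injury (TBI). Bulk libraries came from 3 TBI and 3 sham rats, and nuclei came from 2 TBI rats, 1 sham rat and 1 naïve rat, 1 library per rat. TBI and sham rats shared isoflurane anesthesia, a craniectomy over the right parietal cortex, the attached hub and buprenorphine, and sham rats received no pulse. The naïve rat had no surgery, so the control pair of the nuclei was not uniform, and the methods give the age of the rats only as a range over the whole study, in weeks and not by group.

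Immediate-early genes are the first to be transcribed when a neuron fires, because the transcription factors that switch them on, such as CREB and SRF, are already in the cell and need only to be phosphorylated. Some encode transcription factors, among them the AP-1 partners *Fos* and *Junb*, the zinc finger factors *Egr1* and *Egr3*, the orphan nuclear receptor *Nr4a1* and the neuron-restricted *Npas4*. Others act at the synapse, as *Arc* does in removing AMPA receptors and the short product of *Homer1* does in loosening the postsynaptic scaffold. In the dentate gyrus, granule cells are known for sparse firing, so that few of them carry these transcripts at a time. *Fosb* and *Homer1* each have a long and a short product, and the deposited gene values do not separate them.

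Upstream sequences of *Nr4a1* and *Junb* are shown because *Nr4a1* differed most between neuron classes below and *Junb* did not pass the test between them. Both are the 250 bases before the RefSeq start site in GRCr8, on the plus strand, at chr7:134259888-134260137 for *Nr4a1* and chr19:40080876-40081125 for *Junb*. Capitals mark the core of the cyclic AMP response element, TGACG or its reverse complement CGTCA.
Nr4a1: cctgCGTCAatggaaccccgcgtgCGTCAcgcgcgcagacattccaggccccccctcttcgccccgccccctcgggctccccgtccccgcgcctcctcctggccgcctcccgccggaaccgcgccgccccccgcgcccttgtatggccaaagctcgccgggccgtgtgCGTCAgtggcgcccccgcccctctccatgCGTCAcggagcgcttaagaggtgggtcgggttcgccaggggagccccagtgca
Junb: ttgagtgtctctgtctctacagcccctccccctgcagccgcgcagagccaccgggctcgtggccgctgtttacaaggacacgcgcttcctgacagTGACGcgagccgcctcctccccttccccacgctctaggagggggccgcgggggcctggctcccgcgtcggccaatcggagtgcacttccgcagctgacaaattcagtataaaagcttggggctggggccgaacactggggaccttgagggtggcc
In *Nr4a1* the core began at -246, -226, -82 and -53, and in *Junb* at -155, counted from the base before the start site as -1. RefSeq promoter entries were matched for 7 members (*Fosb*, *Fosl2*, *Junb*, *Egr1*, *Npas4*, *Nr4a1* and *Homer1*), and 3 of them (*Nr4a1*, *Junb* and *Egr1*) held the core on either strand, against 18.2% of all 33469 promoters. The full element TGACGTCA, which contains the core, was in none of the 7 and in 1.59% of all promoters, and the CArG box, the motif bound by SRF, was in 1 member, *Egr1*, and in 1.5% of all promoters. TATAAA stood on either strand of 3 members and of 12.9% of all promoters. GGGCGG, the GC box, was in 2 members and 30.5% of all promoters. *Egr1*, which also did not pass between granule and other excitatory nuclei below, held the core at -135 and -66. *Fosb*, *Fosl2*, *Npas4* and *Homer1*, which passed, did not hold it. A link between the core and the class difference was not tested. A match is a run of letters and not a measured binding site.

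The first comparison asked whether these genes differed between TBI and sham tissue 3 weeks after injury. None of the 10 passed edgeR's quasi-likelihood test with Benjamini-Hochberg adjustment (FDR) at 0.05, and 0 of all 14166 genes did, a background of 0%. At an unadjusted p under 0.05 the members again numbered 0, against 9.60% of all genes, of which 8.20% were higher and 1.40% lower in TBI. DESeq2 called none of the members and 2.47% of all genes. Limma also called none of the members, but its share over all genes is not given here, so nothing is read from that count. The Log2FC (TBI minus sham) was above 0 for 6 members and under 0 for 4, with a median of 0.06 over the members and -0.0029 over all genes. In counts simulated for the bulk comparison over 14166 genes, edgeR recovered 86 of 100 genes changed 4-fold and 50 of 100 changed 2-fold. In the measured counts the smallest edgeR FDR of all genes was 0.196. Whether the simulated rates hold for the measured counts was not tested.

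Each bulk library held between 24730290 and 43912297 counts in the gene table, and levels are given as CPM, the share of that total on the scale of the deposited table. Bulk tissue mixes cells, so fewer cells of a type and less RNA per cell cannot be told apart. The libraries differed in cell content. Summed CPM of 7 granule cell markers was 543 in sham replicate 1, 98.7 in sham 2, 103 in sham 3, 377 in TBI 1, 120 in TBI 2 and 280 in TBI 3, with no marker at 0, and *Prox1*, the homeobox factor of granule cells, ran from 16.0 to 106 CPM. Microglia markers were higher in TBI for 10 of 10 genes (453 to 493 CPM in sham, 741 to 1235 in TBI), astrocyte markers for 6 of 6 (4060 to 4914 and 6867 to 9910) and vascular markers for 8 of 8 (241 to 264 and 286 to 549). Oligodendrocyte markers had a Log2FC under 0 for 8 of 8, but their sums overlapped between groups. The sums were 5577, 17996 and 7055 CPM in sham replicates 1 to 3 and 5347, 8493 and 5591 CPM in TBI replicates 1 to 3. Sham replicate 2 thus stood far above every other library. Markers of other excitatory neurons were higher for 1 of 9 (775 to 903 CPM in sham and 673 to 825 in TBI), of interneurons for 3 of 9, of granule cells for 4 of 7 and of oligodendrocyte precursors for 3 of 6. The part of these shifts in the members' values was not tested.

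*Fos*, which encodes the classic AP-1 subunit of active neurons, was measured at 3.45, 10.4 and 6.77 CPM in sham replicates 1 to 3 and at 8.84, 11.03 and 6.96 CPM in TBI replicates 1 to 3. The groups overlapped, and the lowest library was sham 1. Its Log2FC was 0.34 ± 0.39 (SE, n = 3 per group, 95% interval -0.74 to 1.42, edgeR FDR = 0.855), and it was 0.02 without sham replicate 1 and 0.76 without sham replicate 2. No member spread further over the 6 libraries, with a 3.20-fold range and an SD of log2 CPM above that of 90.7% of genes with at least 1 CPM.

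*Fosb*, a partner of Jun proteins whose truncated product accumulates with repeated activity, gave 8.59, 8.71 and 7.09 CPM in sham and 9.08, 6.06 and 8.53 CPM in TBI. *Fosl2*, the slower AP-1 subunit Fra-2, gave 10.4, 11.2 and 15.4 CPM in sham and 12.4, 13.4 and 11.02 CPM in TBI. In both genes the TBI libraries fell inside or across the sham range. The Log2FC was -0.08 ± 0.20 for *Fosb* and -0.05 ± 0.19 for *Fosl2* (SE, n = 3 per group, edgeR FDR = 0.951 and 0.974). *Junb*, the Jun partner that dimerises with Fos proteins, differed in layout. It stood at 42.7, 40.3 and 43.0 CPM in sham and 49.3, 50.3 and 45.3 CPM in TBI, so all TBI libraries were above all sham libraries. The difference was small, with a Log2FC of 0.16 ± 0.10 (SE, n = 3 per group, 95% interval -0.10 to 0.43, edgeR FDR = 0.668).

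Among the zinc finger factors, *Egr1* was at 66.8, 83.3 and 64.0 CPM in sham and at 86.5, 71.6 and 63.1 CPM in TBI. *Egr3*, a related factor of the same family, was at 60.7, 49.8 and 43.0 CPM in sham and at 49.6, 43.2 and 42.8 CPM in TBI. Both genes overlapped between groups, and the highest *Egr3* library was sham 1, the lowest library for *Fos*. The Log2FC was 0.01 ± 0.16 for *Egr1* and -0.21 ± 0.14 for *Egr3* (SE, n = 3 per group, edgeR FDR = 0.995 and 0.699).

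*Npas4*, a bHLH-PAS factor induced by calcium entry, was the member with the largest fitted Log2FC and had few reads. It was at 2.08, 3.39 and 2.13 CPM in sham and at 4.51, 4.36 and 2.65 CPM in TBI. TBI replicate 3 fell inside the sham range, and the other TBI libraries were above it. The Log2FC was 0.57 ± 0.33 (SE, n = 3 per group, 95% interval -0.36 to 1.49, edgeR FDR = 0.670). *Nr4a1* was at 34.9, 43.4 and 40.4 CPM in sham and at 45.3, 44.7 and 48.5 CPM in TBI, with no overlap. Its Log2FC was 0.18 ± 0.11 (SE, n = 3 per group, 95% interval -0.13 to 0.50, edgeR FDR = 0.685), and 0.09 without sham replicate 1.

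For the synaptic effectors, *Arc* was at 52.9, 81.3 and 69.1 CPM in sham and at 80.003, 76.8 and 69.9 CPM in TBI. The TBI values lay within the sham range, and the Log2FC of 0.12 ± 0.17 (SE, n = 3 per group, edgeR FDR = 0.898) was -0.04 without sham replicate 1. *Homer1* was at 33.9, 42.9 and 36.5 CPM in sham and at 32.1, 33.8 and 27.2 CPM in TBI, so every TBI library was below every sham library, although TBI 2 and sham 1 nearly met. Its Log2FC was -0.32 ± 0.14 (SE, n = 3 per group, 95% interval -0.71 to 0.07, edgeR unadjusted p = 0.0531, FDR = 0.533), the smallest p of the 10 members. In all, 3 members (*Junb*, *Nr4a1* and *Homer1*) had groups that did not overlap, 2 higher and 1 lower, against 11.7% and 3.04% of all genes and 14.7% in either direction. Markers of other excitatory neurons, which carried more *Homer1* than granule nuclei in the snRNA-seq data, were lower in 8 of 9 genes, and their part in the *Homer1* value was not tested.

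**Figure D1:**
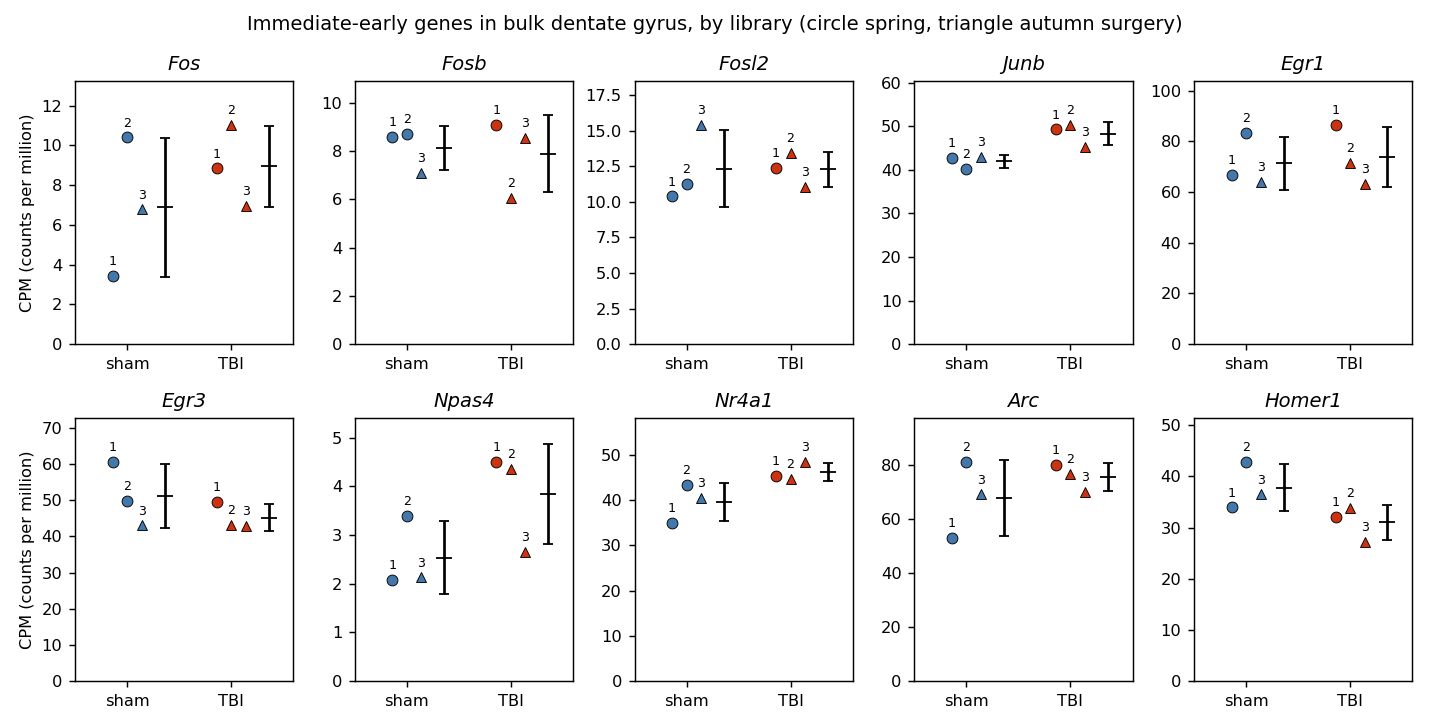
CPM of the 10 genes in each bulk library (y axes in CPM from 0, numbers beside points are replicate numbers, bars are mean ± SD over 3 rats). Circles mark dates of injury up to June (spring in the title) and triangles later dates (autumn). *Junb* and *Nr4a1* lie higher and *Homer1* lower in all TBI libraries, and sham replicate 1 is lowest for *Fos*, *Npas4*, *Nr4a1* and *Arc*.

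Recorded dates of injury were split by month alone, into those up to June (called spring here) and later ones (called autumn). Sham replicates 1 and 2 and TBI replicate 1 fell in spring and the other libraries in autumn. Within spring and within autumn, the Log2FC was 0.56 and 0.37 for *Fos*, 0.76 and 0.68 for *Npas4*, 0.25 and 0.15 for *Junb*, 0.22 and 0.20 for *Nr4a1*, and -0.25 and -0.27 for *Homer1*. These members kept 1 sign in both periods. *Arc* (0.29 and 0.08) and *Egr1* (0.21 and 0.07) were also above 0 in both, as was *Fosb* (0.07 and 0.02), whose Log2FC over all libraries was -0.08. *Egr3* was -0.15 in spring and -6.4e-05 in autumn, and *Fosl2* was 0.20 in spring and -0.34 in autumn. A period held 1 library of one group, so these values carry no test.

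**Figure D2:**
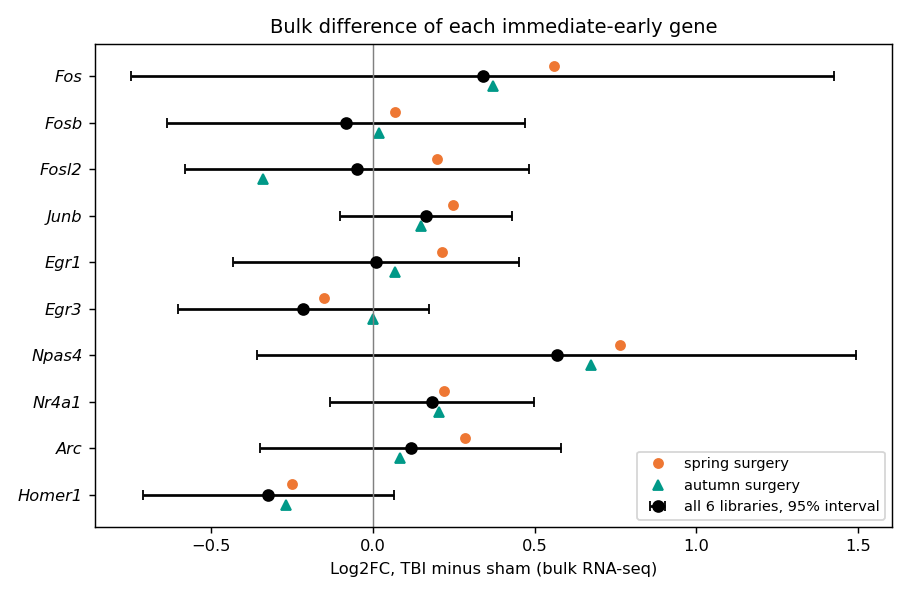
Log2FC (TBI minus sham, x axis) of each gene from edgeR over 6 libraries with 95% intervals in black, and the difference within spring (orange circles) and autumn (green triangles) dates of injury. Every interval includes 0, and *Fosl2* lies on opposite sides of 0 in the 2 periods.

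Libraries rather than groups ordered several members. Sham replicate 1, the library with the highest granule marker sum, was the lowest of 6 for 5 members and the highest for 1, and TBI replicate 1 was the highest for 3. Across the 6 libraries, log2 CPM of *Fos* and *Arc* moved together (Pearson r = 0.97), as did *Fos* and *Npas4* (0.80) and *Arc* and *Nr4a1* (0.79), whereas *Fos* and *Egr3* moved apart (-0.64) and *Fosb* and *Fosl2* too (-0.68). These values describe 6 libraries that share depth and dissection, and they carry no test. The genes whose log2 CPM followed the mean standardised level of the members most closely, among 13614 genes with at least 1 CPM, were *Tmigd1* (r = 0.98), *Zfp534l1* (0.97), *Ccdc167* (0.97), *Kcng4* (0.96) and *Stmp1* (0.95).

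A wider list of 60 activity-regulated genes stood close to the background of the bulk comparison. Of its members, 35 were higher and 25 lower in TBI, 5 were higher and 0 lower at an unadjusted p under 0.05 (8.33%, against 9.60% of all genes), and the median Log2FC was 0.08. The 5 were *Ier2*, *Gem*, *Gadd45g*, *Atf3* and *Maff*. *Ier2*, an immediate-early nuclear protein, was at 7.90, 8.31 and 8.78 CPM in sham and at 12.5, 12.6 and 14.2 CPM in TBI, with no overlap. Its Log2FC was 0.61 ± 0.13 (SE, n = 3 per group, edgeR FDR = 0.197), and it alone on the list passed DESeq2 (FDR = 0.0324). *Gem*, a small GTPase that restrains calcium channels, was at 2.11, 2.04 and 1.49 CPM in sham and at 3.01, 3.35 and 3.69 CPM in TBI, did not overlap and did not pass (Log2FC 0.80 ± 0.26, edgeR FDR = 0.362). *Atf3*, a stress-induced factor, was at 1.48, 2.75 and 2.30 CPM in sham and at 2.74, 5.46 and 6.52 CPM in TBI, with TBI replicate 1 inside the sham range (Log2FC 1.14 ± 0.39, edgeR FDR = 0.385).

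Kinases, receptors and factors that act upstream of the members were measured for 37 of 40 genes, of which 15 were higher and 22 lower in TBI, with a median Log2FC of -0.07 and 2 at an unadjusted p under 0.05 (5.41%). *Elk3*, an ETS partner of SRF that is also abundant in vessels, was at 15.1, 17.0 and 12.8 CPM in sham and at 22.2, 26.2 and 21.1 CPM in TBI (Log2FC 0.59 ± 0.15, SE, n = 3 per group, edgeR FDR = 0.246). The vascular markers above moved in the same direction, and their part in this value was not tested. *Camkk2*, the kinase upstream of CaMKIV, was at 56.5, 64.9 and 65.4 CPM in sham and at 50.8, 57.2 and 40.8 CPM in TBI, with TBI 2 inside the sham range (edgeR FDR = 0.501). Among 10 partners of Homer proteins, 9 had a Log2FC under 0 and 1 above it, against 49.4% of all genes above 0, with a median of -0.17. At an unadjusted p under 0.05, 2 were lower and 0 higher (20%, against 9.60% of all genes and 1.40% lower). Groups did not overlap for 2, both lower in TBI, against 3.04% of all genes. None passed at an FDR under 0.05. The scaffold gene *Dlgap1* was at 324, 310 and 323 CPM in sham and at 294, 268 and 242 CPM in TBI, so every TBI library was below every sham library. It did not pass adjustment (Log2FC -0.29 ± 0.11, SE, n = 3 per group, edgeR FDR = 0.417).

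The second comparison asked in which neurons the members were found and whether TBI rats differed from controls there. After filters 55124 of 55863 nuclei were kept, of which TBI rats 1 and 2 gave 12508 and 14400, the sham rat 16931 and the naïve rat 11285. By marker profile, 34051 nuclei matched granule cells, 3964 other excitatory neurons and 3564 interneurons, and 133 nuclei reached no class. The classes held their own defining markers, which were used to assign them. *Prox1* was at 363 CPM in granule, 46.9 in other excitatory and 102 in interneuron nuclei, *Neurod6* at 87.7 CPM in other excitatory and 5.2 in granule nuclei, and *Gad2* at 589 CPM in interneuron and 10.5 in granule nuclei. *Prox1* also read 151 to 238 CPM in 4 glial classes, where it is not known as a marker. Between 46 and 64 cell barcodes were shared by any pair of matrices, and doublets were not removed.

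The matrices also hold entries of value 0, which a sparse matrix would normally leave out, and several members had more of them than the median gene. In the median gene, 1.62% of stored entries were 0 in TBI rat 1, 28.4% in TBI rat 2, 11.6% in sham nuclei and 15.6% in naïve nuclei. For *Fos* the shares were 30.8, 93.2, 77.6 and 89.5% in that order, for *Junb* 12.5, 87.3, 74.4 and 65.3%, and for *Egr1* 9.2, 87.0, 59.6 and 90.0%. *Npas4* had none in any rat, and *Homer1* was close to the median gene at 2.4, 25.6, 10.6 and 13.1%. Only 2.55% of genes in TBI rat 2 and 0.041% in TBI rat 1 had over 80% of their entries at 0. These entries were read as 0 UMIs, and the class tests, the TBI tests and some levels were repeated with them taken as 1 UMI, an alternative chosen after seeing the data. Thinned shares, levels in glial nuclei and the counts of members per nucleus were computed only with them as 0. Their origin was not tested.

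**Figure D3:**
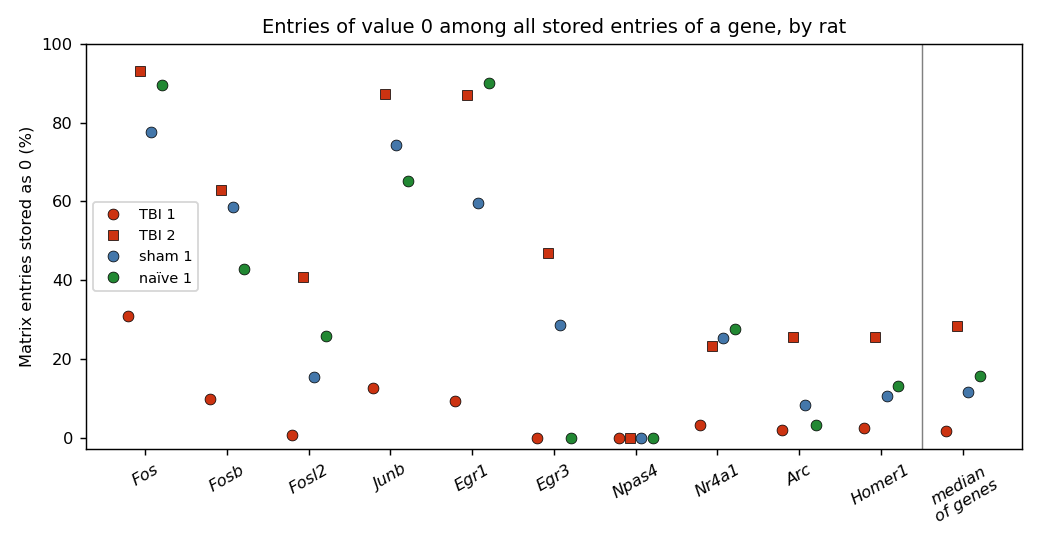
Share of a gene's stored matrix entries that have the value 0 (y axis in %, 1 point per rat, all nuclei kept), with the median over genes at the right. *Fos*, *Junb* and *Egr1* stand at 59.6% or more in 3 rats, TBI rat 1 is lowest for most genes and *Npas4* is at 0 in all rats.

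Most members had few UMIs in granule nuclei. Over all 4 rats, granule nuclei held 25 *Fos* UMIs, 31 *Npas4* UMIs, 95 *Fosb* UMIs and 126 *Arc* UMIs among 83290651 UMIs, and 13131 *Homer1* UMIs. With entries stored as 0 taken as 1 UMI these counts were 136 for *Fos*, 31 for *Npas4*, 162 for *Fosb*, 151 for *Arc* and 14727 for *Homer1*. Oligodendrocyte nuclei, which are not known to fire, served as a background level, on few UMIs for most members. At 1000 UMIs per nucleus, a *Homer1* UMI was found in 12.9, 13.7, 16.2 and 11.03% of granule nuclei and in 12.6, 15.6, 14.9 and 9.8% of oligodendrocyte nuclei (TBI 1, TBI 2, sham, naïve), so the granule share was slightly higher in 3 rats and lower in TBI rat 2, and in each rat it lay inside the 95% interval of the oligodendrocyte share. Their median depths before thinning were 2180 and 891 UMIs. Thinning left out 128 to 265 granule and 110 to 1046 oligodendrocyte nuclei per rat. Without thinning, *Homer1* UMIs were in 27.4% of granule and 12.6% of oligodendrocyte nuclei. As CPM, *Nr4a1* (2.68 in granule, 4.02 in oligodendrocyte nuclei), *Junb* (2.91 and 2.19), *Egr1* (2.70 and 2.56), *Egr3* (2.13 and 2.19) and *Arc* (1.51 and 1.10) were also near that level, on 3 to 11 oligodendrocyte UMIs each, and *Fosl2* (14.05 and 8.04) was above it. Other non-neuronal classes read higher for some members, with *Nr4a1* at 26.0 CPM in oligodendrocyte precursor nuclei, *Junb* at 15.9 and *Egr1* at 8.49 CPM in microglia, and *Egr1* at 25.8 CPM in vascular nuclei.

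Other excitatory nuclei carried more of 6 of these transcripts than granule nuclei of the same rats. In a paired edgeR fit with the rat as a term, 6 of the 10 members were lower in granule nuclei at an FDR under 0.05 and none was higher, against 18.1% of 14171 genes lower, 14.2% higher and 32.4% in either direction. *Nr4a1* was at 2.41, 5.97, 2.52 and 0.93 CPM in granule nuclei (TBI 1, TBI 2, sham, naïve) and at 17.0, 57.0, 29.9 and 17.0 CPM in other excitatory nuclei. Every other excitatory value was above every granule value (other excitatory minus granule, Log2FC 3.46 ± 0.23, SE, 4 rats, edgeR FDR = 1.94e-04). Thinned to 1000 UMIs, 1.32, 4.98, 2.93 and 1.28% of other excitatory nuclei had an *Nr4a1* UMI. The oligodendrocyte shares were 0.341, 1.04, 0.282 and 0%, the last from 0 of 244 nuclei. Their exact binomial 95% intervals reached up to 1.89, 5.67, 1.56 and 1.5%. The other excitatory share thus lay inside the oligodendrocyte interval in both TBI rats and the naïve rat, and above it only in the sham rat. Not thinned, the pooled shares were 7.67% of other excitatory and 0.361% of oligodendrocyte nuclei.

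*Homer1* read 141, 172, 190 and 133 CPM in granule nuclei and 341, 580, 391 and 520 CPM in other excitatory nuclei, higher in 4 of 4 rats. The difference was 2.95-fold (Log2FC 1.56 ± 0.16, SE, 4 rats, edgeR FDR = 8.17e-04), and 27.4, 37.8, 29.4 and 34.2% of thinned other excitatory nuclei had a UMI. Here the share was above that of oligodendrocyte nuclei in every rat. *Arc* read 1.11, 2.98, 0.88 and 1.53 CPM in granule and 4.19, 10.1, 2.84 and 6.49 CPM in other excitatory nuclei (Log2FC 1.91 ± 0.26, edgeR FDR = 0.00206). *Fosl2* read 17.2, 12.7, 16.1 and 10.0 CPM in granule and 27.1, 27.5, 36.9 and 11.5 CPM in other excitatory nuclei (Log2FC 0.88 ± 0.19, edgeR FDR = 0.0133), and its call was lost without the sham rat (FDR = 0.0813).

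*Npas4* and *Fosb* passed on few UMIs. *Npas4* counted 5, 11, 5 and 10 UMIs in granule and 4, 7, 13 and 6 UMIs in the much smaller other excitatory class, which is 0.23, 0.71, 0.22 and 0.42 CPM against 0.99, 2.22, 2.84 and 2.16 CPM (Log2FC 2.48 ± 0.47, SE, 4 rats, edgeR FDR = 0.00801). *Fosb* read 0.69, 2.40, 0.75 and 1.10 CPM against 2.96, 4.43, 2.18 and 5.05 CPM (Log2FC 1.699 ± 0.34, SE, 4 rats, edgeR FDR = 0.0103). Both were higher in other excitatory nuclei of 4 of 4 rats. *Fos* counted 6, 11, 8 and 0 UMIs in granule and 6, 0, 11 and 10 UMIs in other excitatory nuclei, was higher there in 3 of 4 rats and did not pass (Log2FC 2.60 ± 1.10, edgeR FDR = 0.117). With entries stored as 0 taken as 1 UMI, *Fos* passed (Log2FC 1.80, edgeR FDR = 5.99e-04), and without TBI rat 2 it passed too (FDR = 0.0305). Under that reading of stored entries the 6 calls were kept, with a Log2FC of 2.89 for *Nr4a1*, 1.45 for *Homer1*, 1.72 for *Arc*, 0.78 for *Fosl2*, 2.51 for *Npas4* and 1.23 for *Fosb* (other excitatory minus granule).

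*Junb*, *Egr1* and *Egr3* did not pass between these classes, with a Log2FC of 0.64 ± 0.27, 0.69 ± 0.48 and 0.65 ± 0.33 (other excitatory minus granule, SE, 4 rats, edgeR FDR = 0.120, 0.306 and 0.180). Among the 60 further activity genes, 49 were tested, of which 16 were lower (32.7%, against 18.1% of all genes) and 7 higher in granule nuclei (14.3%, against 14.2%), and the median Log2FC (granule minus other excitatory) was -0.29. Of the upstream regulators, 10 were lower (26.3%) and 14 higher (36.8%) among 38 tested, and of the 10 Homer partners 6 were lower and 3 higher, against the same shares of all genes.

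Interneuron nuclei gave a different order of members. Of the 8 members tested against granule nuclei, 2 were higher in granule nuclei (*Egr3* and *Fosl2*) and 1 was lower (*Nr4a1*), against 23.1% and 18.4% of 14159 genes and 41.5% in either direction. These counts were near the shares of all genes, so nothing particular to the members is read from them. *Egr3* counted 58, 31, 31 and 57 UMIs in granule nuclei and 1 UMI in the interneurons of each rat, which is 2.68, 2.01, 1.37 and 2.42 CPM against 0.39, 0.41, 0.39 and 0.46 CPM (Log2FC 2.46 ± 0.51 granule minus interneuron, SE, 4 rats, edgeR FDR = 0.00462). *Nr4a1* read 8.53, 13.2, 14.7 and 3.65 CPM in interneuron nuclei, above granule nuclei in 4 of 4 rats (Log2FC -1.704 ± 0.30, edgeR FDR = 0.00203). *Fosl2* read 14.7, 6.20, 6.98 and 8.20 CPM there (Log2FC 0.80 ± 0.23, edgeR FDR = 0.0209) and lost its call without TBI rat 2 (FDR = 0.0862) or the sham rat (FDR = 0.115). *Homer1* read 146, 190, 161 and 122 CPM, higher than granule nuclei in 2 rats and lower in 2, and did not pass (edgeR FDR = 0.0891). With entries stored as 0 taken as 1 UMI, *Egr3*, *Nr4a1* and *Fosl2* kept their calls, with a Log2FC of -1.74, 1.44 and -0.54 (interneuron minus granule). *Fos* and *Fosb*, with 3 UMIs each in all interneuron nuclei, were not tested.

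**Figure D4:**
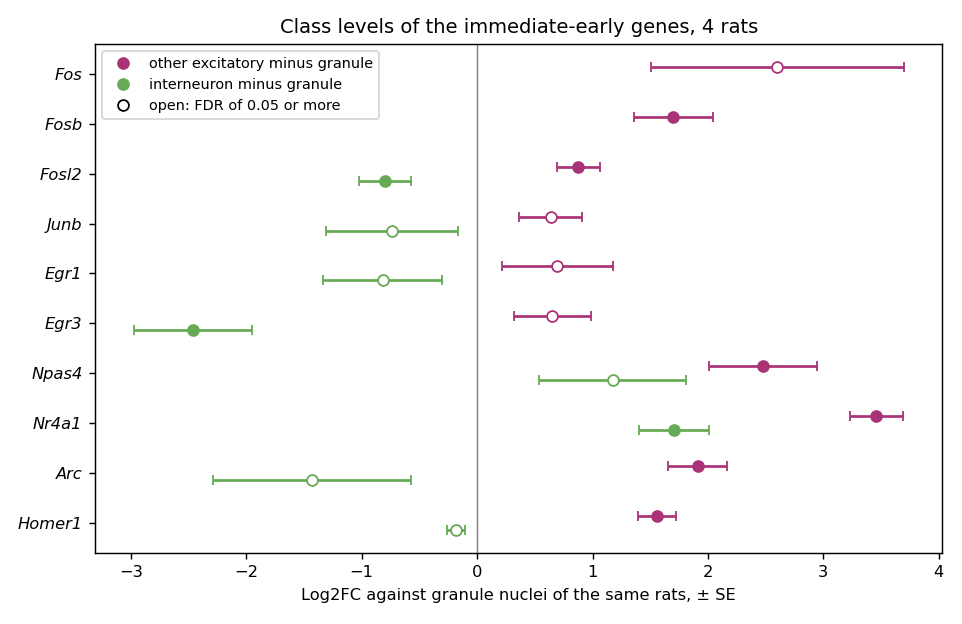
Log2FC against granule nuclei of the same rats (x axis, ± SE, 4 rats) for other excitatory (purple) and interneuron nuclei (green), with filled points at an FDR under 0.05. All 10 genes lie to the right of 0 for other excitatory nuclei, 6 of them filled, and *Egr3* and *Nr4a1* lie on opposite sides for interneuron nuclei.

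Between TBI and control rats, no member passed the test within any of the 3 classes. In granule nuclei 0 of 8 members tested passed edgeR (background 0% at FDR, 2.38% of 14692 genes at an unadjusted p under 0.05, where the members numbered 0). In other excitatory nuclei it was 0 of 8 (0% and 0.757% of 11620 genes) and in interneuron nuclei 0 of 3 (0% and 1.37% of 11148 genes), with no member under an unadjusted p of 0.05, and DESeq2 called 0 genes in each class. No tested member had TBI rats that were both above or both below the 2 controls, against 31.8, 24.6 and 28.6% of genes. *Fos*, which had too few UMIs to be tested, was lower in both TBI rats in other excitatory nuclei. It read 1.48 and 0 CPM in TBI rats 1 and 2, and 2.40 and 3.61 CPM in the sham and naïve rats. In TBI rat 2 all 20 stored *Fos* entries of this class had the value 0. With such entries taken as 1 UMI, *Fos* read 1.71 and 5.255 CPM in TBI rats 1 and 2, and 6.12 and 6.95 CPM in the sham and naïve rats. TBI rat 2 was then close to the controls. With 2 rats against 2, simulated 2-fold changes were recovered for 23, 6 and 22 of 100 genes in granule, other excitatory and interneuron nuclei, and 4-fold changes for 67, 49 and 75 of 100. In the measured nuclei the smallest edgeR FDR over all genes was 0.9976, 0.9995 and 0.9994 in that order. Whether the simulated rates hold there was not tested.

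*Nr4a1* in granule nuclei shows the spread. Its Log2FC (TBI minus control) of 1.22 ± 0.71 (SE, 2 rats per group, edgeR FDR = 0.998) came with 1 TBI rat at 5.97 CPM and the other at 2.41 CPM, just under the sham rat at 2.52 CPM, and with the naïve rat at 0.93 CPM. *Arc* followed TBI rat 2 as well, at 2.98 CPM in granule and 10.1 CPM in other excitatory nuclei, the highest of the 4 rats in both. *Homer1* had a Log2FC of -0.12 ± 0.21 in granule, -0.01 ± 0.36 in other excitatory and 0.19 ± 0.21 in interneuron nuclei.

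*Junb* and *Egr1* read highest in TBI rat 1, the rat with the smallest share of their entries stored as 0. *Junb* was at 4.90 CPM in TBI rat 1 and 3.90 in the naïve rat but 1.10 in TBI rat 2 and 1.19 in the sham rat (granule nuclei). With stored entries of 0 taken as 1 UMI it was at 5.91, 11.1, 10.6 and 5.31 CPM in the same order of rats. For *Egr1* the granule values were 6.52, 0.97, 2.34 and 0.68 CPM (TBI 1, TBI 2, sham, naïve) and became 7.10, 10.7, 6.82 and 5.53 CPM, so the highest rat changed. The Log2FC (TBI minus control) of *Egr1* in granule nuclei went from 1.23 ± 0.98 to 0.42, and that of *Junb* from 0.13 ± 0.86 to -0.11. *Nr4a1*, with a smaller share of such entries, went from 1.22 to 0.54.

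**Figure D5:**
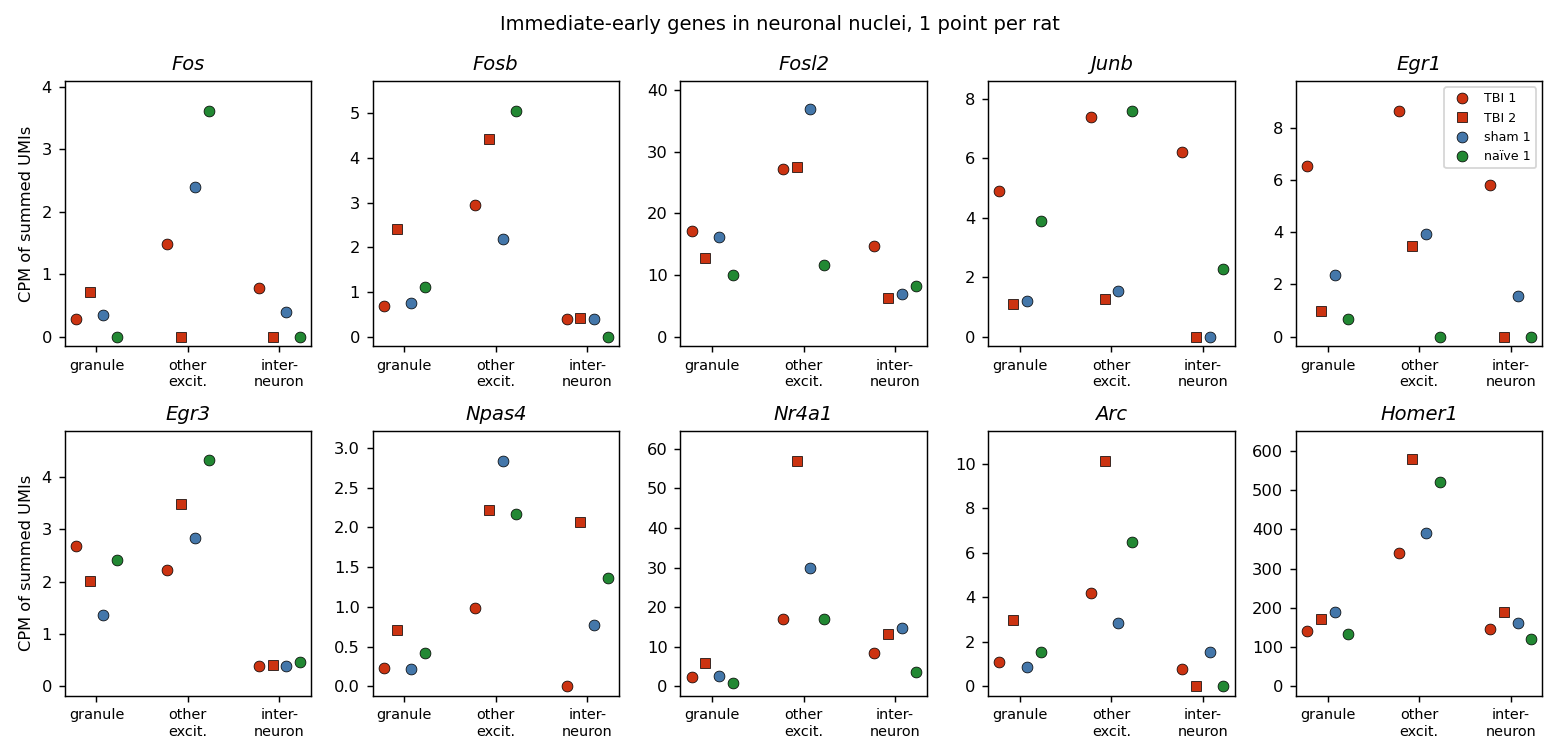
CPM of summed UMIs of the 10 genes in granule, other excitatory and interneuron nuclei (y axes in CPM, linear), with 1 point per rat. *Nr4a1*, *Homer1*, *Arc* and *Npas4* stand higher in other excitatory nuclei than in granule nuclei of every rat. TBI rats (red) and controls (blue and green) interleave, except for *Fos* in other excitatory nuclei, where both TBI rats lie below both controls.

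The TBI difference was also compared between classes within rats. None of the 8 members tested in granule and other excitatory nuclei passed (limma on log2(CPM + 0.5), background 0% of 11581 genes), nor did the 3 tested in granule and interneuron nuclei (0% of 11108 genes). The largest of these differences in size was that of *Egr1*, at -1.20 ± 0.79 (granule minus other excitatory, SE, limma FDR = 0.9998). Shares of thinned nuclei with a UMI lay apart between the 2 TBI rats and the 2 controls for 6 of 30 pairs of member and class, and the exact two-sided permutation test of 2 rats against 2 cannot go below p = 0.333. Such shares were small: in other excitatory nuclei *Fos* was in 0, 0, 3 and 2, *Npas4* in 0, 0, 3 and 1 and *Arc* in 7, 9, 3 and 1 thinned nuclei (TBI 1, TBI 2, sham, naïve). At 1500 UMIs per nucleus 4 of the 30 pairs lay apart. *Fos* and *Npas4* in other excitatory nuclei were lower in both TBI rats at both depths and without thinning. *Fosb* there was lower in TBI rats at 1000 UMIs and higher at 1500. The share of all genes that lay apart was not computed, so no order is read from these counts.

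Single nuclei with several members at once were rare. A UMI of at least 1 of 8 members (leaving out *Homer1* and *Fosl2*, which were more widespread) was found in 4.78, 1.71, 1.56 and 2.71% of granule nuclei (TBI 1, TBI 2, sham, naïve), in 12.4, 16.3, 11.3 and 14.2% of other excitatory nuclei and in 6.31, 3.23, 4.36 and 2.79% of interneuron nuclei. At least 3 of the 8 were found together in 2, 17, 9 and 5 granule nuclei, in 6, 6, 4 and 6 other excitatory nuclei and in 0 interneuron nuclei of any rat. One granule nucleus of TBI rat 2 held 6 of them. The 17 granule nuclei of TBI rat 2 had a median of 1957 UMIs, against 1762 for all its granule nuclei, and the 2 of TBI rat 1 had 6530 against 2412.

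In granule nuclei, each of the 28 pairs of the 8 members met in the same nuclei more often than the share of one in nuclei without the other. This held for 21 of 28 pairs in other excitatory nuclei, where the remaining 7 never met, and for 3 of 28 in interneuron nuclei, where 25 never met. Of the 27 granule nuclei with an *Npas4* UMI, 12 also had *Nr4a1* (44.4%), against 0.461% of granule nuclei without *Npas4*, 10 had *Fosb* (37.0% against 0.15%) and 7 had *Arc* (25.9% against 0.323%). Of the 18 with *Fos*, 10 had *Junb* (55.6% against 0.643%) and 10 had *Nr4a1* (55.6% against 0.467%). In other excitatory nuclei, 19 of 27 with *Npas4* had *Nr4a1* (70.4% against 7.24%) and none of these 27 had *Junb*, *Egr1* or *Egr3*. *Egr3* also met none of *Fos*, *Fosb*, *Junb* and *Egr1* there. These shares pool the nuclei of 4 rats, and nuclei with more UMIs can hold more of any gene, so they carry no test.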

How the data were processed

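Bulk reads were quantified by the authors with kallisto, who deposited estimated counts per transcript, not normalized, for 31715 transcripts, and a table of log2 CPM for 14166 genes, after filters on annotation, abundance and variance. Its version was not given in the sources used here. Gene counts were worked back from the deposited log2 CPM (0.5 added before the logarithm by the authors) and rounded to whole numbers, and 71.3% of genes equalled 1 transcript's count within 0.001. The design had assumed count tables per gene. Gene names came from RefSeq (13778 of 14166 matched).

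The snRNA-seq matrices deposited by the authors hold UMI counts from Cell Ranger (exons and introns, Rnor_6.0). Nuclei with at least 500 UMIs, 300 features and 0.8 log10 genes per log10 UMI, at most 5% mitochondrial and 2% ribosomal UMIs were kept. Nuclei were seeded by at least 3 marker UMIs of 2 markers with 75% in 1 class, and all nuclei were assigned by multinomial likelihood (2 rounds, margin of at least 5 natural-log units) to 8 classes, without the members and further activity genes. No deposited annotation of nuclei was used. Median UMIs per nucleus were 1647 to 2652. Intervals cover counting error only.

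Tests used edgeR 4.0.16 (quasi-likelihood, TMM, Benjamini-Hochberg over all genes tested), applied to bulk libraries and, after filterByExpr, to the UMIs summed over each rat and class. DESeq2 1.42.0, limma 3.58.1, other normalizations, filters, margins, gates and the period of injury were alternatives. Scripts were tested on simulated data. Software was Python 3.11.15 with matplotlib 3.10.9 and scipy 1.17.1, and R 4.3.3. Text names all 10 members, of each other list those among the 5 smallest bulk p-values, and the 5 genes of most similar pattern. One gene that this rule names is not reported here. The members and lists were chosen with earlier results of these data known. Promoter sequences are from RefSeq, GRCr8, and no coordinates of that build were joined to the files.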

Additional observations from a re-analysis of the deposited data

Results flagged for a closer look

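*Fosl2* in bulk tissue had a Log2FC of 0.20 among rats with a spring date of injury, where the TBI library was above both sham libraries. It was -0.34 among those with an autumn date, where both TBI libraries were below the sham library. The difference between the periods was not tested.

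In TBI rat 2, the share of matrix entries stored as 0 was above that of both control rats for *Fos* (93.2%), *Fosb* (63.0%), *Fosl2* (40.7%), *Junb* (87.3%) and *Egr3* (46.9%), and above the median gene of that rat (28.4%). These entries were used in no comparison other than the alternative that took them as 1 UMI.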

How the results depend on the processing

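Of 77 recomputed counts of members called, 76 stayed within 1.5 times the value reported. For the TBI tests in bulk and nuclei, and for the TBI difference between classes, the reported count was no member called. A setting that also calls no member repeats that count, so this agreement does not show that those results are robust. Changes in single members other than turns of sign are not listed in full here. The exception among the 77 was DESeq2 with p adjusted only over genes with an unadjusted p under 0.05. It called 1 member in bulk, *Homer1*, against 10.8% of genes. That adjustment keeps every gene it is given under 0.05, so the call restates the unadjusted DESeq2 p of 0.0434 for *Homer1*. Among the limits of the nuclei were 2 rats per group, the entries stored as 0, and depth, with *Fos* and *Npas4* at no more than 31 UMIs per class.

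With no library left out, signs turned only for TBI differences, none of which had passed edgeR. Bulk Log2FC of *Egr1* was -0.0142 with DESeq2, under both adjustments, and with RLE factors, that of *Fosl2* was 0.0102 with limma and that of *Fosb* 0.0131 with the period of injury as a covariate. TBI minus control in granule nuclei was -0.0819 for *Egr3* under the marker gate and -0.11 for *Junb* with stored entries of 0 as 1 UMI. In other excitatory nuclei *Homer1* was 0.0080 with DESeq2, 0.0078 with RLE factors and 0.0092 without the filter, and *Junb* was 0.26 with stored entries of 0 as 1 UMI, under which *Nr4a1* in interneuron nuclei was -0.0799. The cause was not tested.

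Leaving out 1 library at a time gave 42 further turns of sign among 250 values. In bulk the ranges were -0.20 to 0.0532 for *Fosb*, -0.17 to 0.14 for *Fosl2*, -0.13 to 0.14 for *Egr1* and -0.0402 to 0.27 for *Arc*. In granule nuclei they were -0.57 to 1.32 for *Fosb*, -0.17 to 0.46 for *Fosl2*, -1.26 to 1.26 for *Junb*, -0.65 to 2.33 for *Egr1*, -0.15 to 0.72 for *Egr3*, -0.28 to 1.26 for *Arc* and -0.34 to 0.13 for *Homer1*. Other excitatory nuclei gave -0.49 to 0.75 for *Fosb*, -0.44 to 1.18 for *Fosl2*, -1.70 to 1.42 for *Junb*, -0.81 to 0.0541 for *Egr3*, -0.61 to 1.35 for *Nr4a1*, -0.27 to 1.35 for *Arc* and -0.57 to 0.42 for *Homer1*. Interneuron nuclei gave -0.33 to 0.86 for *Fosl2*, -0.47 to 1.47 for *Nr4a1* and -0.0498 to 0.39 for *Homer1*. The difference of the TBI effect (granule minus other excitatory) ran from -0.0877 to 0.68 for *Fosb*, -0.67 to 0.31 for *Fosl2*, -0.0829 to 0.53 for *Junb*, -0.31 to 0.21 for *Arc* and -0.47 to 0.46 for *Homer1*, and against interneuron nuclei from -0.55 to 0.32 for *Fosl2*. Where a rat left a group with 1 sample, that sample was assumed to vary like the others.

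The sample titles do not say whether replicate numbers pair the bulk rats, and the correlations below did not settle it. Deviations of same-numbered sham and TBI libraries from their group means correlated at 0.37, 0.22 and -0.04. Sham replicates 1 and 2 correlated best with the TBI library of their own number, and sham replicate 3 with TBI replicate 2. With the replicate block, edgeR called 0 members, and its share over all genes is not given here. No paired analysis was possible because the sham and naïve nuclei have only replicate 1 each, except between classes, where the rat was a term.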
